A study of Mus musculus with 4 samples.

Results

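Of the 21738 genes listed in the deposited table, 8 encode transcription factors of neurogenesis, the making of neurons from precursors, and were taken by gene name: Dlx1, Dlx2, Prox1, Insm1, Myt1, Meis2, Pbx3 and Tcf4. Their RNA was measured in immunoprecipitates from neurospheres, in which neural precursors grow as floating spheres. Wild-type CD1 mice of postnatal day 7 or 8 gave the cells, taken from the stem cell niche lining the lateral ventricles, the ventricular-subventricular zone (V-SVZ), and cultured for 7 days. Of the 4 libraries, 2 came from precipitates with an antibody against 4E-T and 2 from precipitates with a control IgG, numbered by experiment 1 and 2 in the labels. All 4 libraries came from wild-type cultures of mixed cells, with no treatment or cell selection named in the labels. The labels do not say whether the cultures or animals were separate, so the spread behind the p-values is that of these libraries and may be technical.

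4E-T, the product of the gene Eif4enif1, is a partner of the cap-binding protein eIF4E and helps to hold mRNA untranslated in cytoplasmic granules named processing bodies (P-bodies). In the postnatal V-SVZ, stem cells give rise to transit amplifying precursors and then to neuroblasts that migrate to the olfactory bulb and become mostly GABAergic interneurons. Dlx1 and Dlx2 are homeobox factors of this interneuron lineage, Meis2 and Pbx3 are homeobox factors of the TALE class that bind DNA with partner proteins, and Prox1 is a homeobox factor related to Drosophila prospero. Insm1 and Myt1 are zinc finger factors of newly forming neurons, and Tcf4 is an E protein, a basic helix-loop-helix factor that dimerises with proneural proteins. Tcf4 is not the Wnt effector Tcf7l2, which also carries that name in older work.

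Prox1 and Dlx2 transcripts were higher with 4E-T than with IgG, Tcf4 was lower, and the other 5 did not pass the test. Prox1 was 2.21-fold higher, with a log2 difference of 1.14 ± 0.13 (SE, n = 2 per antibody; limma adjusted p = 8.03e-08). Dlx2 was 1.49-fold higher, with a log2 difference of 0.57 ± 0.14 (limma adjusted p = 0.00103). Tcf4 was 1.48-fold higher with IgG, with a log2 difference of -0.57 ± 0.15 (limma adjusted p = 0.00233). Values are FPKM as the authors deposited them, fragments scaled for exon length and by a factor for each library. That factor did not follow the number of reads in the library alone. Dlx1 had 500 reads and an FPKM of 1.37 in IgG library 2, against 432 reads and an FPKM of 1.41 in 4E-T library 1. These libraries held 77919577 and 85451469 reads over the listed genes, recovered from the deposited values. Differences are 4E-T minus IgG on the log2(FPKM + 1) scale, where changes of low genes come out too small, and folds are taken from them. A call is an adjusted p under 0.05 over all 12585 genes with an FPKM of at least 1 in at least 2 libraries. All 8 factors passed that filter in all 4 libraries.

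These counts are to be read against a table in which calls were common. Of the tested genes, 49.5% were called, 34.3% higher and 15.2% lower with 4E-T, so 2 higher and 1 lower of 8 are close to the background. The median log2 difference of the 8 was 0.17, against 0.16 over all tested genes. Prox1 stood above 98.2% of tested genes in its log2 difference and Dlx2 above 82.3%. Tcf4 stood above 7.53% of them. The values are scaled per library, so a lower value in the 4E-T libraries is not a measure of less RNA recovered. They are not shares of a fixed total either. The FPKM of all tested genes summed to 321531 to 329198 with IgG and to 348297 to 385076 with 4E-T. Differences are between precipitates with different antibodies and are not a measure of cell numbers or of RNA per cell in the cultures. The cultures were mixed, so the cell type that gave an RNA cannot be told.

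The libraries held between 72769612 and 85828188 reads over the listed genes, recovered from the deposited values. The 8 transcripts had between 411 and 74933 reads each per library. Markers of neural stem and precursor cells were abundant: all 13 of that list were tested, and Sox2 had an FPKM of 103 and 110 (IgG) against 167 and 160 (4E-T). The 3 listed genes of a 7-gene microglia and blood list summed to an FPKM of at most 0.286 in any library, and the 5 listed genes of a 6-gene endothelial and mural list to at most 1.88. None of either list passed the filter. Dcx, the defining microtubule protein gene of neuroblasts, was also under the filter, with an FPKM of 0.506 and 0.556 (IgG) against 0.267 and 0.264 (4E-T).

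The level order of the 8 transcripts was nearly the same with both antibodies. Tcf4 was the most abundant and stood above 93.5% of tested genes in mean FPKM, followed by Meis2, Pbx3 and Myt1. With IgG the order went on with Dlx2, Prox1, Insm1 and Dlx1. With 4E-T, Prox1 and Dlx2 changed places: Prox1 had a mean FPKM of 8.47 ± 0.134 (SD, n = 2) and Dlx2 of 6.60 ± 1.079, against 3.29 ± 0.169 and 4.10 ± 0.233 with IgG. Neighbours in either order did not overlap between their 2 libraries. Dlx1 was the least abundant, with a mean FPKM of 1.23 ± 0.200 with IgG and 1.47 ± 0.0945 with 4E-T, above only 6.29% of tested genes.

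**Figure D1:**
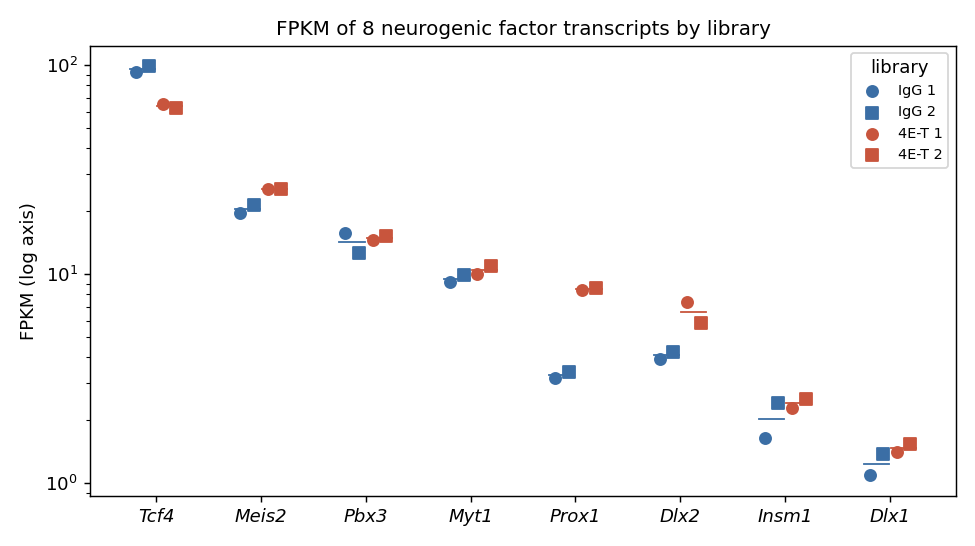
FPKM (log axis) of the 8 transcripts in the 2 IgG libraries (blue) and the 2 4E-T libraries (red), with circles for experiment 1, squares for experiment 2 and short lines for the mean of each antibody. Both 4E-T libraries lie above both IgG libraries for Prox1 and Dlx2 and below them for Tcf4.

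The homeobox gene Prox1 (ENSMUSG00000010175.13; chromosome 1, 190118035 to 190170827, GRCm38.p6) had the largest difference of the 8. Its FPKM was 3.17 and 3.41 in IgG libraries 1 and 2, against 8.37 and 8.56 in the corresponding 4E-T libraries. Both 4E-T libraries were thus above both IgG libraries, and libraries of the same antibody lay close together. The reads behind these values were 2300 and 2390 (IgG) against 4954 and 4776 (4E-T). The call was kept under every alternative run, with log2 differences between 0.98 and 1.34 and a limma adjusted p of at most 0.00150. The antisense gene Prox1os overlaps the start of Prox1, and the cDNA kit does not mark strand, so reads in the overlap could not be told apart. Prox1os itself had between 20 and 42 reads per library. The paralogue Prox2 was near the filter, with an FPKM of 1.17 and 0.995 (IgG) against 1.49 and 1.22 (4E-T), and was not called (log2 difference 0.18 ± 0.13, limma adjusted p = 0.264).

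Dlx1 and Dlx2 are neighbouring genes on chromosome 2, separated by 9426 bp. Dlx2 (ENSMUSG00000023391.8; 71543408 to 71546754) had an FPKM of 3.93 and 4.26 in IgG libraries 1 and 2, against 7.37 and 5.84 in the corresponding 4E-T libraries. The 4E-T libraries were both above the IgG libraries but differed more from each other. Dlx2 was called under every alternative, with log2 differences between 0.41 and 0.72 and limma adjusted p-values up to 0.0396. Dlx1 (ENSMUSG00000041911.3; 71528113 to 71533981) had an FPKM of 1.09 and 1.37 for IgG versus 1.41 and 1.54 for 4E-T. The 4E-T values were above the IgG values by a small margin, and the interval of the difference spanned 0 (log2 difference 0.15 ± 0.13, limma adjusted p = 0.351, 95% interval -0.12 to 0.42). Dlx1 had only 411 to 500 reads per library. The antisense gene Dlx1as, with 16 to 35 reads per library, overlaps it. Of the other Dlx genes, Dlx3 and Dlx5 were under the filter, with FPKM of at most 0.310 in any library.

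The genomic sequence before the start of Prox1 and Dlx2, the transcripts called higher, is shown beside that of Myt1, which was not called and whose window also lies outside the gene. RNA immunoprecipitation does not measure promoters. Each line gives the 250 bases before a RefSeq start in GRCm38.p6, 5′ to 3′ on the strand of the gene, for Prox1 at chr1:190170828-190171077 (minus strand), for Dlx2 at chr2:71546755-71547004 (minus strand) and for Myt1 at chr2:181763082-181763331 (plus strand). Other starts of Prox1 and Myt1 are not printed. Capitals mark E-boxes, CANNTG, the class of site that E proteins such as Tcf4 bind, and the homeodomain core TAAT, searched on both strands as TAAT and ATTA; no marked matches overlap.
Prox1: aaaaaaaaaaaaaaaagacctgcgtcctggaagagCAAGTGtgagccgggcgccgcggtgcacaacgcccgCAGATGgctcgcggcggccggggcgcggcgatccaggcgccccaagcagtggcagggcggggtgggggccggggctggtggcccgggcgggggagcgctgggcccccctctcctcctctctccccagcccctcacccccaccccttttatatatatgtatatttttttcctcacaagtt
Dlx2: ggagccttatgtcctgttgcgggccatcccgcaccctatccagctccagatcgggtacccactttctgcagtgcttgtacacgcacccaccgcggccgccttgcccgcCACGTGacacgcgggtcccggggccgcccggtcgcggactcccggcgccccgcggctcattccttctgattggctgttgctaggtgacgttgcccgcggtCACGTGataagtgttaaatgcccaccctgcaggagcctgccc
Myt1: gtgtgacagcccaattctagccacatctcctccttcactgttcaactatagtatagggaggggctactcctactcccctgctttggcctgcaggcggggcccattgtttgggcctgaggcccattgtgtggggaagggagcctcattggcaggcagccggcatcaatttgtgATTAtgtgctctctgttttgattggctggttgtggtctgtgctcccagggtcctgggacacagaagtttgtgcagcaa
Prox1 and Dlx2 held 2 E-boxes each, both of those in Dlx2 reading CACGTG, and Myt1 held 0. The homeodomain core was found once, in Myt1. The other start of Prox1 held 0 E-boxes, and the other 2 of Myt1 held 2 and 1, so the counts depend on the start taken. Of 32851 windows of this length in the RefSeq table, 66.2% held an E-box and 54.9% the homeodomain core. A match of these letters is a description of the sequence. Of the 8 genes, 5 had an entry in that table.

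The TALE genes Meis2 and Pbx3 were not called. Meis2 (ENSMUSG00000027210.20; chromosome 2, 115861264 to 116067537), a cofactor of Pax6 and Dlx2 in olfactory bulb neurogenesis, had an FPKM of 19.6 and 21.3 in IgG libraries 1 and 2, against 25.7 and 25.5 in the corresponding 4E-T libraries. Both 4E-T libraries were above both IgG libraries, but the difference missed the threshold after adjustment (log2 difference 0.31 ± 0.14, limma adjusted p = 0.0629). In the authors' deposited table, Meis2 had a log2 fold change of 0.32 ± 0.14 and an adjusted p of 0.0571. The lncRNA gene G630016G05Rik, with 138 to 268 reads per library, overlaps Meis2. Pbx3 (ENSMUSG00000038718.15; chromosome 2, 34171457 to 34372045), a partner of Meis and Hox proteins, had an FPKM of 15.8 and 12.6 for IgG versus 14.5 and 15.2 for 4E-T. Its 4E-T libraries lay between the 2 IgG libraries (log2 difference 0.068 ± 0.14, limma adjusted p = 0.717, 95% interval -0.22 to 0.36).

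The zinc finger genes Insm1 and Myt1 also did not pass. Insm1 (ENSMUSG00000068154.5; chromosome 2, 146221997 to 146225020), which acts in intermediate precursors as they leave the stem cell state, had an FPKM of 1.64 and 2.42 in IgG libraries 1 and 2, against 2.30 and 2.53 in the corresponding 4E-T libraries. The antibodies overlapped, and the IgG libraries were farther apart than the means of the antibodies (log2 difference 0.18 ± 0.14, limma adjusted p = 0.277). Myt1 (ENSMUSG00000010505.16; chromosome 2, 181763332 to 181827775), a repressor of Notch pathway genes in differentiating neurons, had an FPKM of 9.14 and 9.89 for IgG versus 10.03 and 10.9 for 4E-T. The 4E-T values were above the IgG values, but the interval of the difference spanned 0 (log2 difference 0.12 ± 0.14, limma adjusted p = 0.468, 95% interval -0.15 to 0.40). Its paralogues Myt1l and St18 had FPKM of at most 0.136 and 0.0667 and were not tested.

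The E protein gene Tcf4 (ENSMUSG00000053477.16; chromosome 18, 69343429 to 69687967) was the only one of the 8 called lower. Its FPKM was 92.5 and 98.7 in IgG libraries 1 and 2, against 65.5 and 62.6 in the corresponding 4E-T libraries. Both 4E-T libraries were below both IgG libraries, by a margin several times the gap within either antibody. These values rest on 72704 and 74933 reads with IgG and 42016 and 37831 with 4E-T. Without IgG library 2 the log2 difference was -0.52 and the call was lost (limma adjusted p = 0.0708, against 0.00233 with all libraries). In the authors' deposited table, Tcf4 had a log2 fold change of -0.58 ± 0.13 and an adjusted p of 0.000122.

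In the deposited FPKM of the 8 transcripts, both 4E-T libraries lay above both IgG libraries for 5 (Prox1, Dlx2, Meis2, Dlx1 and Myt1). They lay below for 1 (Tcf4) and overlapped for 2 (Pbx3 and Insm1). Such an order depends on the scaling of the libraries. In unscaled reads Prox1 and Dlx2 stayed above and Tcf4 below. Meis2 had 9880 and 10387 reads (IgG) against 10561 and 9875 (4E-T), and Dlx1 had 411 and 500 against 432 and 446. Myt1 had 4612 and 4823 against 4132 and 4226. Of all tested genes, 75.7% had antibodies that did not overlap, 50.5% with both 4E-T libraries above and 25.2% with both below. The authors' deposited table called 20.0% of its 21738 genes higher and 11.9% lower at an adjusted p under 0.05, and of the 8 it called Prox1, Dlx2 and Tcf4. Its log2 fold changes, with no pseudocount of 1, were 1.36 ± 0.14 for Prox1 and 0.69 ± 0.18 for Dlx2.

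**Figure D2:**
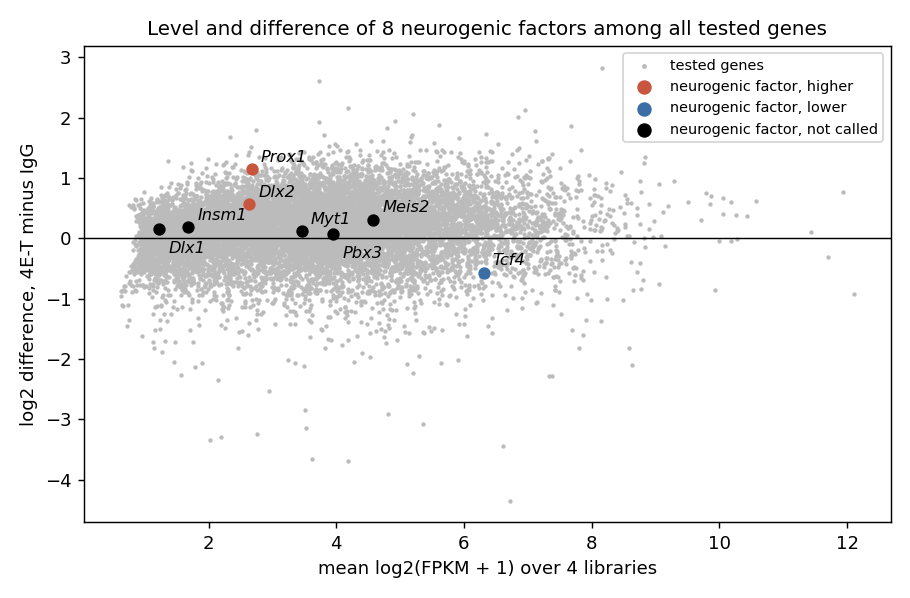
Log2 difference, 4E-T minus IgG, against the mean log2(FPKM + 1) of the 4 libraries for the 12585 tested genes (grey) and the 8 neurogenic factors (red called higher, blue called lower, black not called). Prox1 and Dlx2 lie in the upper part of the cloud and Tcf4 in the lower part, among the more abundant transcripts.

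The values also depended on how the libraries were scaled. As deposited, the median difference over tested genes was 0.16 (log2), which is the level to read the 8 values against. Median ratio scaling brought that median to -0.0025 and quantile normalisation to 0.031. With median ratio scaling 22.8% of tested genes were called higher and 23.6% lower, and with quantile normalisation 25.1% and 22.5%. The 3 calls held with both: Prox1 had differences of 0.98 and 0.997, Dlx2 of 0.41 and 0.42, and Tcf4 of -0.76 and -0.76. Meis2 was at 0.13 and 0.11, Insm1 was at 0.053 and 0.15, and Dlx1 at 0.041 and 0.17. The sign turned for Myt1 (-0.047 and -0.055) and Pbx3 (-0.11 and -0.12), neither of which was called.

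**Figure D3:**
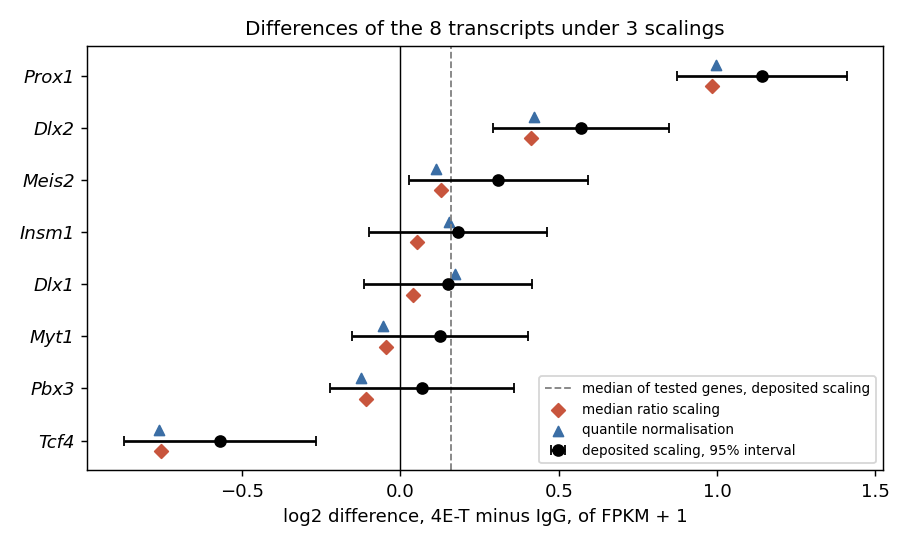
Log2 difference of each transcript (4E-T minus IgG, of FPKM + 1) with the deposited scaling (black, 95% interval), median ratio scaling (red diamonds) and quantile normalisation (blue triangles), and the median of all tested genes as deposited (dashed line). Prox1, Dlx2 and Tcf4 stay on 1 side of 0 in every scaling, while Myt1 and Pbx3 change sign.

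Ratios of 2 transcripts within a library do not depend on a scaling of that library by 1 common factor, such as median ratio scaling. Quantile normalisation is not of that kind and can change them. The ratio of Prox1 to Tcf4 in FPKM was 0.0343 and 0.0346 in the IgG libraries, and 0.128 and 0.137 in the 4E-T libraries, 3.84-fold higher with 4E-T. Prox1 relative to Dlx2 went from 0.807 and 0.801 to 1.14 and 1.47. Dlx2 relative to its neighbour Dlx1 was 3.60 and 3.10 (IgG) against 5.24 and 3.79 (4E-T), so the antibodies did not overlap, but the 4E-T libraries differed from each other by more than the nearest libraries of the 2 antibodies. Of the 28 pairs of the 8 transcripts, 19 had ratios that did not overlap between the antibodies. Over all pairs of tested genes above 0 in every library the share was 74.5%, so 19 of 28 is not above the background. All 7 pairs with Prox1 and all 7 with Tcf4 were among them, while of the 10 pairs among Meis2, Insm1, Dlx1, Myt1 and Pbx3 there were 2. Prox1 and Tcf4 have the highest and lowest log2 differences of the 8 in these same libraries, and the other 5 are the transcripts not called. That contrast therefore follows from the calls and adds no support to them. The pairs share genes and are not independent. With 2 libraries against 2, an exact two-sided permutation test of a single ratio cannot give a p below 0.333, so no test is reported.

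**Figure D4:**
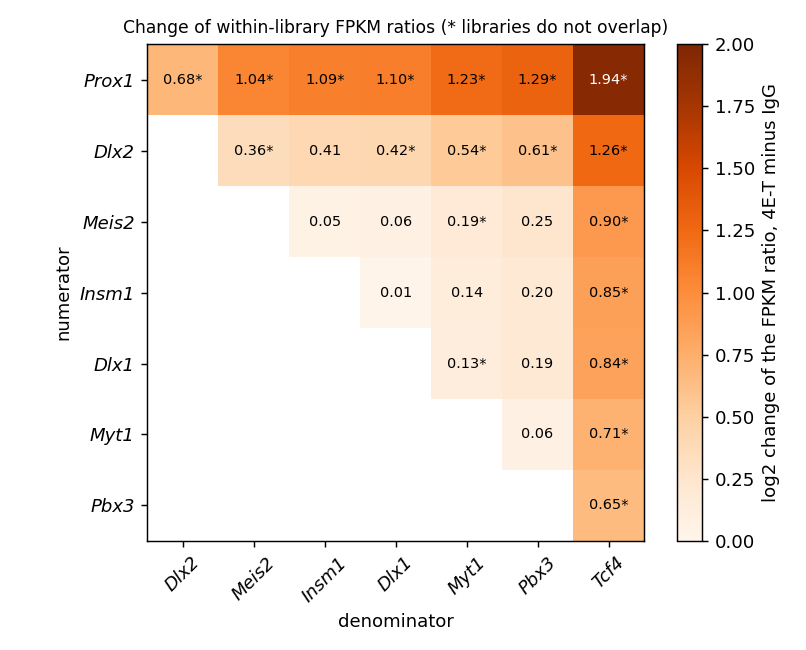
Change of the FPKM ratio of 2 transcripts within a library (row over column), as the mean log2 ratio with 4E-T minus that with IgG. Stars mark the 19 pairs whose libraries do not overlap between antibodies, and the largest change is Prox1 over Tcf4 (1.94).

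Tcf4 was compared with the other E proteins and with the Id genes, whose products bind E proteins and keep them from DNA. Of 6 such genes tested, 2 were higher and 1 lower, with a median log2 difference of 0.11 against 0.16 over all tested genes. With 34.3% of all tested genes higher and 15.2% lower, these counts are close to the background. Id1 had an FPKM of 13.1 and 14.6 (IgG) against 26.7 and 22.4 (4E-T) (log2 difference 0.78 ± 0.14, limma adjusted p = 5.86e-05), and Id4 of 3.30 and 3.20 against 5.35 and 5.97 (0.65 ± 0.13). Id2 was lower, at 23.0 and 24.2 against 16.8 and 16.9 (-0.47 ± 0.14), a call lost without IgG library 2 (limma adjusted p = 0.0696). Tcf3 and Tcf12, the other E protein genes, were not called as deposited (0.10 ± 0.15 and -0.19 ± 0.15). Tcf12 passed as lower after median ratio scaling (-0.38, limma adjusted p = 0.0176) and after quantile normalisation (-0.41, 0.00697), and with these the sign of Tcf3 turned (-0.083 and -0.077). The FPKM ratio of Tcf4 to Tcf3 was 1.02 and 0.992 (IgG) against 0.637 and 0.615 (4E-T), and that of Id1 to Tcf4 was 0.142 and 0.148 (IgG) against 0.407 and 0.358 (4E-T).

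Around Meis2 and Pbx3, 9 other TALE homeobox genes were tested. Of these, 1 was higher and 2 were lower, with a median log2 difference of 0.074 as deposited and -0.11 with median ratio scaling. Among all tested genes, 34.3% were higher and 15.2% lower, and the corresponding medians were 0.16 and -0.0025. Tgif2, a repressor of TGF-beta target genes, was higher (0.52 ± 0.13), though not without IgG library 2 (limma adjusted p = 0.0535). Meis1 was lower (-0.34 ± 0.14, limma adjusted p = 0.0401), and the call did not survive the loss of any 1 library (adjusted p from 0.0803 to 0.172) or testing with no filter (0.0676). Relative to Meis1, the FPKM of Meis2 was 1.54 and 1.77 (IgG) against 2.59 and 2.74 (4E-T). Both 4E-T ratios were thus above both IgG ratios. Pbx4 was not called as deposited (-0.20 ± 0.14) but was called lower with median ratio scaling and quantile normalisation (-0.35 and -0.34).

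Other factors of the olfactory bulb interneuron lineage were higher in 4 and lower in 1 of 9 tested cases, with a median log2 difference of 0.27. Over all tested genes 34.3% were higher and 15.2% lower, with a median of 0.16, so these counts are close to the background. Tshz1 (0.54 ± 0.14), a zinc finger factor of olfactory bulb neurons, lost its call without IgG library 2 (limma adjusted p = 0.0511). Bcl11b (0.46 ± 0.13) lost it without IgG library 1 (0.0966) and with median ratio scaling (0.0598). Gsx2 (0.39 ± 0.14), a homeobox gene upstream of the Dlx genes, missed the threshold when IgG library 1 (limma adjusted p = 0.133), 4E-T library 1 (0.0588) or 4E-T library 2 (0.0660) was left out, and also with median ratio scaling (0.141) and quantile normalisation (0.151). Etv1 was lower (-0.34 ± 0.14, limma adjusted p = 0.0451), but not when any 1 library was left out (0.0559 to 0.229) or with no filter (0.0805).

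A further list held Myt and Insm relatives and the neuronal repressor REST with its corepressors. Of its 7 tested genes, 5 were called higher and 0 lower, with a median log2 difference of 0.50. Over all tested genes 34.3% were higher and 15.2% lower, with a median of 0.16. After either rescaling of the libraries 4 of the 7 were higher and 0 lower. The background was then 22.8% higher and 23.6% lower with median ratio scaling, and 25.1% and 22.5% with quantile normalisation. Rest, which holds neuronal genes silent in other cells and in precursors, had an FPKM of 13.4 and 15.7 (IgG) against 33.4 and 28.2 (4E-T) (log2 difference 1.03 ± 0.14, limma adjusted p = 1.48e-06). The corepressor genes Rcor2 (0.70 ± 0.15) and Rcor1 (0.50 ± 0.14) were higher with every library left out in turn. The histone deacetylase gene Hdac1 (0.58 ± 0.15) lost its call when IgG library 2 was left out (limma adjusted p = 0.107). All 7 tested are Rest itself or corepressor genes, since the Myt1 paralogues were not tested.

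Of 4 tested genes among general and excitatory neurogenic factors, Sox4, Sox11, Sox12 and Hes6, 0 were called, against 49.5% of all tested genes. The most abundant, Sox4, had an FPKM of 118 and 154 (IgG) against 145 and 134 (4E-T). Hes6 was at 80.2 and 98.0 (IgG) against 99.3 and 107 (4E-T). Sox12 had the largest difference of them (0.33 ± 0.14) and missed the threshold (limma adjusted p = 0.0560). Neurog2, Neurod1, Neurod4 and Tbr1 were listed at FPKM of at most 0.408 and were not tested.

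Among 11 tested genes that neuroblasts and interneurons use, 2 were called higher and 1 lower, with a median log2 difference of -0.098. With median ratio scaling 1 was higher and 2 lower, and with quantile normalisation 2 and 2. For this list and the marker lists below, the background as deposited was 34.3% higher and 15.2% lower, with a median of 0.16. Dpysl3, a gene of the growth cone protein family of collapsin response mediators, was not called as deposited (-0.27 ± 0.15) but was lower after either rescaling (-0.46 and -0.48, limma adjusted p = 0.00963 and 0.00290). Cd24a, a surface protein gene of neuroblasts, was lower, with an FPKM of 86.0 and 66.6 (IgG) against 47.6 and 36.6 (4E-T) (log2 difference -0.84 ± 0.16, limma adjusted p = 0.000125). Tubb3, a neuronal tubulin gene, was higher at 7.86 and 6.52 against 10.9 and 10.8 (0.54 ± 0.14), but not without IgG library 2 (limma adjusted p = 0.0651). Robo2, a guidance receptor gene, was higher (0.43 ± 0.13) and lost its call when either IgG library (0.0763 and 0.112) or 4E-T library 1 (0.156) was left out, and with median ratio scaling (0.0738). Gad1, a GABA synthesis gene under Dlx control, was at 2.86 and 3.16 (IgG) against 2.94 and 4.75 (4E-T) and was not called (0.25 ± 0.15). The summed FPKM of the listed genes was 218 to 234 with IgG and 165 to 195 with 4E-T, while that of the precursor markers was 3756 to 3902 with IgG and 4463 to 5861 with 4E-T. Of those 13 markers, 7 were called higher and 0 lower (median log2 difference 0.47), but most of the sum was Fabp7, which was not called (2591 and 2758 for IgG, 3475 and 2386 for 4E-T). Of 5 tested astrocyte markers, 1 was called higher and 1 lower (median -0.075); their sum, 478 to 523 with IgG and 846 to 1017 with 4E-T, differed through Aldh1l1 (308 and 276 against 784 and 619), while Gfap and Aqp4 were below with 4E-T. Of 6 tested oligodendrocyte lineage markers, 4 were called higher and 1 lower (median 0.66). With median ratio scaling 3 were higher and 1 lower, and with quantile normalisation 3 and 2. Their sum was 1151 to 1173 with IgG and 1139 to 1378 with 4E-T, most of it Olig1. Olig1 was not called as deposited but was lower with quantile normalisation (-0.38, limma adjusted p = 0.0217). Ependymal markers summed to at most 11.6 in any library. The part of such cell type differences in the values of the 8 transcripts was not tested.

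**Figure D5:**
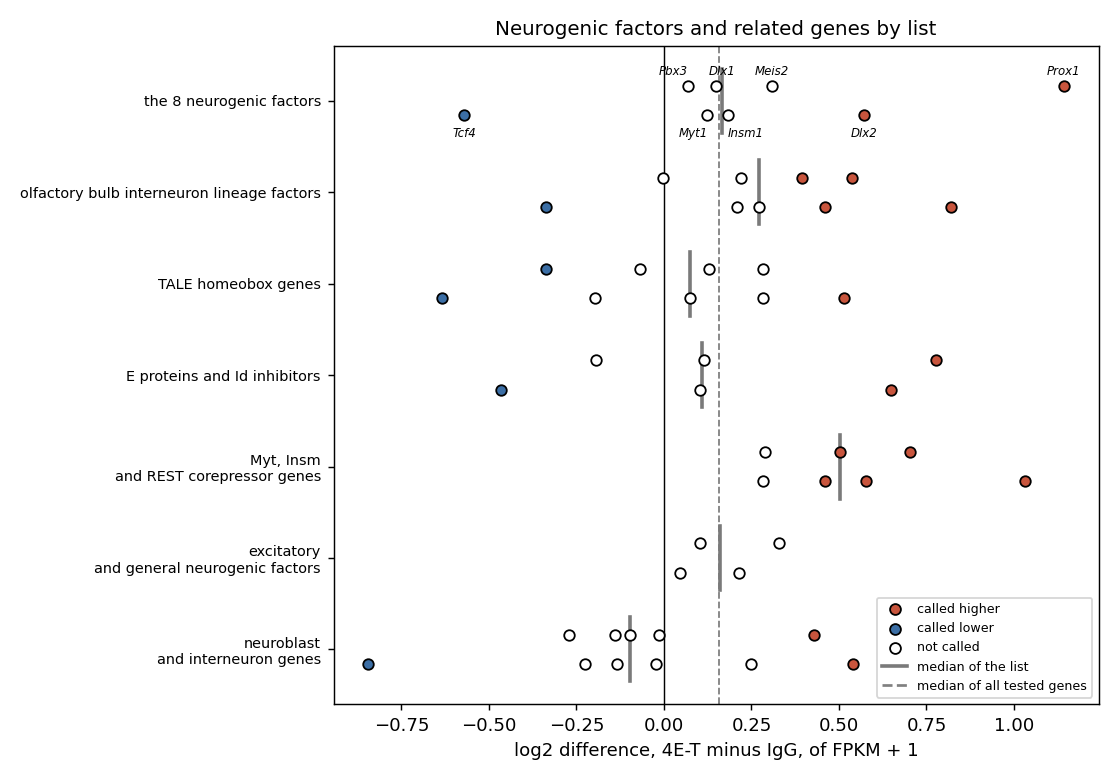
Log2 difference (4E-T minus IgG, of FPKM + 1) of each tested gene in the 8 neurogenic factors and in 6 lists of related genes, with names for the factors only, filled red where called higher, blue where called lower and white where not called. Solid bars are list medians and the dashed line is the median of all tested genes, 0.16; the REST list holds calls in the higher direction only.

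Exon length moved with the calls over the whole table. Genes called higher had a median of 3791 bp, those called lower one of 2749.5 bp and the rest one of 2894 bp. Among the 8, Tcf4, called lower, was the longest at 8577 bp, followed by Prox1, called higher, at 7913 bp. Dlx2, also called higher, was the shortest at 2473 bp, and Pbx3, not called, had 2858 bp. The part of length in these differences was not tested.

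For 6 of the 8 factors, the tested gene nearest in its pattern over the 4 libraries is given, found among genes within 2-fold of the factor's mean FPKM, by Euclidean distance of mean-centred log2(FPKM + 1). For Prox1 it was Ptpn23 (distance 0.058), with an FPKM of 2.85 and 3.10 (IgG) against 7.31 and 7.92 (4E-T). Atp6v1g1 was nearest to Tcf4 (0.021), with 161 and 171 against 113 and 110. Esrra was nearest to Meis2, Igsf3 to Dlx1, Mbd6 to Insm1 and Rad54l2 to Myt1. With 4 libraries and between 1432 and 4432 candidate genes for each of these factors, a near match says nothing of shared function or control.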

How the data were processed

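The samples were 2 anti-4E-T and 2 control IgG immunoprecipitates. The labels' protocols name the Magna RIP kit for RNA isolation, SMART-Seq v4 for cDNA and Nextera XT for libraries. The submitters' processing notes name, on mm10, STAR 2.6.0c and HTSeq 0.6.1p2, with Trim Galore 0.5.0, FastQC 0.11.5, DESeq and DESeq2 1.26.0. No settings are given in the sources used here. The deposited table gives FPKM for every gene in each library. Its baseMean, per the file headers, is a signal averaged over normalised reads. It also holds the authors' log2 fold changes with their errors, the authors' test statistic (a score), the authors' p-values and the authors' linear fold change. The lowest baseMean was 2.63.

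Each gene's FPKM and baseMean gave whole reads for 100% of 86952 values (tolerance 0.01 read). These reads give depth and, scaled on 10 mitochondrial genes, exon lengths. Between libraries of 1 antibody, chi-square per degree of freedom was 32.4 for IgG and 48.5 for 4E-T, so none repeats another.

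All 12585 tested genes entered 1 fit of log2(FPKM + 1) in limma 3.58.1 (R 4.3.3), antibody as the only term, trend and robust options, Benjamini-Hochberg adjustment. With 2 residual degrees of freedom, the fit borrows its spread across genes (27 prior degrees of freedom). Steps were tested on simulated data. The 8 genes and the lists were chosen with earlier results of these data known. Of each list, up to 4 called genes per direction were to be named, or the 2 most abundant where none was called. Of the genes it picks, some are not reported here. Other genes were named after their values were seen. The alternatives were other pseudocounts (0.1, 0.5), no filter or an FPKM of 5, median ratio scaling, quantile normalisation, limma without trend and robust options, leaving out each library, and a replicate block. Coordinates and promoters are RefSeq's, on GRCm38.p6.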

Additional observations from a re-analysis of the deposited data

How the results depend on the processing

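The counts of calls, the 8 transcripts and the 19 called related genes were recomputed under 12 alternatives; ratios, level order, exon lengths and nearest genes were not. The calls of Prox1 and Dlx2 held under all that were run, and that of Tcf4 under all but 1. Median ratio scaling moved the genes called higher from 4318 to 2870 and lower from 1912 to 2969 (49.2% of calls higher, against 69.3% as deposited and 52.8% with quantile normalisation), and turned Myt1 (-0.047) and Pbx3 (-0.11). Quantile normalisation turned them too (-0.055 and -0.12). With either scaling 8 related genes were called lower, against 5. Leaving out 1 library gave 3661 to 6014 called genes, 2389 to 4259 higher and 1101 to 1755 lower, and 10 to 16 called related genes, 8 to 13 higher and 2 to 3 lower. It gave log2 differences of -0.0019 to 0.37 for Insm1, -0.083 to 0.22 for Pbx3 and -0.62 to -0.52 for Tcf4, and 0 to 1 of the 8 called lower. The lone library of an antibody was then assumed to vary like the others.

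The experiment numbers were not taken to pair the libraries, since the labels do not say what they mark and the deviations of same-numbered libraries had a correlation of 0.064 over tested genes. With a replicate block, Meis2 was called (0.31, limma adjusted p = 0.0286), and Prox1, Dlx2 and Tcf4 remained called. Of the related genes 22 were then called, Sox12 (adjusted p = 0.0203), Tgif1 (0.0421) and Rcor3 (0.0465) beside the 19. Dlx1, Insm1, Bcl11b and Robo2 were under the filter of 5 FPKM and gave no value there. Dlx1 had the fewest reads of the 8, and its adjusted p-values ran from 0.291 to 0.812 over the alternatives.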
